A study of Homo sapiens with 8 samples.

Results

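The genes that license DNA for replication were examined in Ago2-RIP-Chip data from ST486, a cell line established from Burkitt lymphoma, a germinal centre B-cell lymphoma. The genes were MCM2 to MCM7, ORC1, ORC2, CDC6 and CDT1, 10 genes in all. Their probes were found as the non-control probes whose RefSeq identifier on the array maps to these symbols. This gave 11 of the 41000 probes, with 2 probes for CDT1 and 1 for each other gene. All 11 passed the filters on detection and on dye differences, which 15529 probes passed in all.

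The arrays compared RNA of the cell lysate as a whole, the total (T) fraction, with RNA recovered by an anti-Ago2 antibody, the immunoprecipitated (IP) fraction. Ago2 is the protein that holds a miRNA on its target transcripts, so the IP/T ratio of a transcript measures how strongly it is recovered with Ago2 relative to its level in the cell. The control cells (EV-ST486) were transduced with the empty retroviral MXW-PGK-IRES-GFP vector, and the other cells (miR-155-ST486) with ectopic miR-155. The study's methods describe sorting of GFP+ cells to check miRNA overexpression and do not say whether the cells for the arrays were sorted. Whether the cells came from few or many integrations is not given in the sources used here. The 4 RNA samples were labelled in Cy3 and in Cy5, and the IP and total RNA of a vector shared an array in each dye orientation, which gave 4 arrays and 8 channels. The labellings are technical repeats, so each condition has n = 1, no test between conditions could be made, and the values of the labellings show how far labelling and hybridization vary and nothing of the spread between cultures. The arrays lay on 2 slides and 0 slides held both vectors, so a difference between vectors and a difference between slides cannot be told apart.

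Between 14094 and 22161 probes were detected in a channel, that is well above background and with a signal that was positive and significant, and 0 spots were saturated. The B-cell genes MS4A1, CD79A and CD79B and the germinal centre marker MME were detected in 8 of 8 channels. The probe for PAX5, a B-cell transcription factor, was detected in 0 channels, and which transcripts of the gene it covers was not checked. The probes for CD3D and CD3E of T cells and LYZ of myeloid cells were also detected in 0 channels, and that for CD14 of monocytes was detected in 5 channels and did not pass the filters. BCL6 had no probe matched by RefSeq identifier.

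Licensing takes place between mitosis and the start of S phase. The origin recognition complex (ORC), of which ORC1 and ORC2 are subunits, binds replication origins and recruits CDC6, an ATPase, and CDT1, which carries the MCM ring. MCM2 to MCM7 together form that ring, the core of the helicase that unwinds DNA at the replication fork, and the ring is loaded onto DNA by ORC, CDC6 and CDT1. Many licensing genes are known targets of E2F transcription factors, and they are well expressed in cycling cells such as those of Burkitt lymphoma.

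The ectopic miRNA is shown first because it is the factor by which the cells differ, followed by the miRNAs whose genes lie within MCM7 on chromosome 7 and share its transcription unit. All are given as mature sequences from RefSeq (GRCh38.p14), with the seed, bases 2 to 8, in capitals. miR-106b-5p and miR-93-5p share a seed, which differs from those of miR-25-3p and miR-155-5p. The array probe for MCM7 carries the identifier of its messenger RNA, and the miRNAs themselves were not analysed here.
miR-155-5p: uUAAUGCUaaucgugauagggguu
miR-106b-5p: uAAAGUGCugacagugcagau
miR-93-5p: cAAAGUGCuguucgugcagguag
miR-25-3p: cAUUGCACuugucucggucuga

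Promoters of the MCM genes are printed because these genes had higher signals together in miR-155-ST486 cells, as the values further on show. RefSeq windows from 250 bases before to 50 bases after a gene's start were held for 8 of the 10 genes, with 3 windows for MCM7 and none listed for MCM4 and MCM5. They were searched on both strands for the E2F letters TTTGGCGC, TTTCCCGC, TTTGCCGC and TTTCGCGC and for the E-box CACGTG, the letters bound by MYC and related factors. Capitals mark the E2F matches, and where a match on one strand overlaps a match on the other they form a single run of capitals, as in MCM2 and MCM6. The window of MCM7 farthest upstream is shown, since the other windows of this gene held no match.
MCM2, chr3:127598161-127598460, plus strand: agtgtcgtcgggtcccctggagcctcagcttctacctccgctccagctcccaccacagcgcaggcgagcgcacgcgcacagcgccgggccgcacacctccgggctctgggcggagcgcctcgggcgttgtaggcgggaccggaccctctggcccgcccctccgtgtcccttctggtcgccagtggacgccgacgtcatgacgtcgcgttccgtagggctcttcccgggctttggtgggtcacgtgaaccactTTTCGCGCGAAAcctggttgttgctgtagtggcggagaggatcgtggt
MCM3, chr6:52284693-52284992, minus strand: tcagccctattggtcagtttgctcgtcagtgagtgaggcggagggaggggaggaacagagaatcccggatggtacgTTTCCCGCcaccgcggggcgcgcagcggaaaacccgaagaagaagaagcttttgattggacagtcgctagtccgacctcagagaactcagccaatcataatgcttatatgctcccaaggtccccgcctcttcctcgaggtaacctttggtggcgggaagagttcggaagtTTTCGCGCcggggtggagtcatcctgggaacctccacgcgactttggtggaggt
MCM6, chr2:135876394-135876693, minus strand: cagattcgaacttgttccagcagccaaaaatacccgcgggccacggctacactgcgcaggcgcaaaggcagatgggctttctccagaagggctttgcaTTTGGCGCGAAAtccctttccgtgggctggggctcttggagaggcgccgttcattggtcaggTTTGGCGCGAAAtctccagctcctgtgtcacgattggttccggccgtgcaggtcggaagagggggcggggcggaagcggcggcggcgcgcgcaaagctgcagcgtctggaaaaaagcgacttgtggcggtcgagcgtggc
MCM7, chr7:100101348-100101647, minus strand: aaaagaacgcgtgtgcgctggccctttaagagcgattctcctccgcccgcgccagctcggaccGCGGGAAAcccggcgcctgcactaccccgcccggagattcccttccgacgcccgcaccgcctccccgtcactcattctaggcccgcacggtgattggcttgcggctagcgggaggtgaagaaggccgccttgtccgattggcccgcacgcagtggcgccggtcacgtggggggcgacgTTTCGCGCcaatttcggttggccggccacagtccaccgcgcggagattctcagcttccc
E2F letters were found for 6 of the 8 genes, namely for MCM2, MCM3, MCM6 and MCM7 and also for CDC6 and CDT1, and not in the windows of ORC1 and ORC2. Of all genes with a window, 3.99% held the letters, and of the genes with a window and a kept probe 7.5%. The E-box was found for 2 of the 8 genes, MCM2 and MCM7, for 8.77% of all genes with a window and for 12.9% of those with a kept probe. These are matches of letters, and binding was not measured. In total RNA of miR-155-ST486 over EV-ST486 cells, the MCM genes shown lay between 1.32-fold and 1.92-fold. CDC6, also with E2F letters, was at 0.884-fold and the CDT1 probes at 1.18-fold and 0.945-fold. ORC1 and ORC2, without the letters, were at 1.22-fold and 1.21-fold. A relation of the letters to the signals was not tested.

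The MCM genes had higher signals in miR-155-ST486 than in EV-ST486 cells, in the total fraction and in the IP fraction alike. In total RNA the difference ranged from 1.32-fold for MCM7 to 1.92-fold for MCM6, with a median over the 6 MCM probes of 1.53-fold against 1.01-fold over all kept probes. In IP RNA it ranged from 1.43-fold for MCM4 to 1.75-fold for MCM2, with a median of 1.61-fold against 1.00-fold over all kept probes. The genes that load the ring were closer to the other probes of the array, with a median over their 5 probes of 1.18-fold in total RNA and 1.04-fold in IP RNA. The division into ring and loader genes follows their roles, but the comparison between them was chosen after the values were seen. In bulk RNA a different share of cells that hold a transcript and a different amount of it per cell cannot be told apart.

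**Figure D1:**
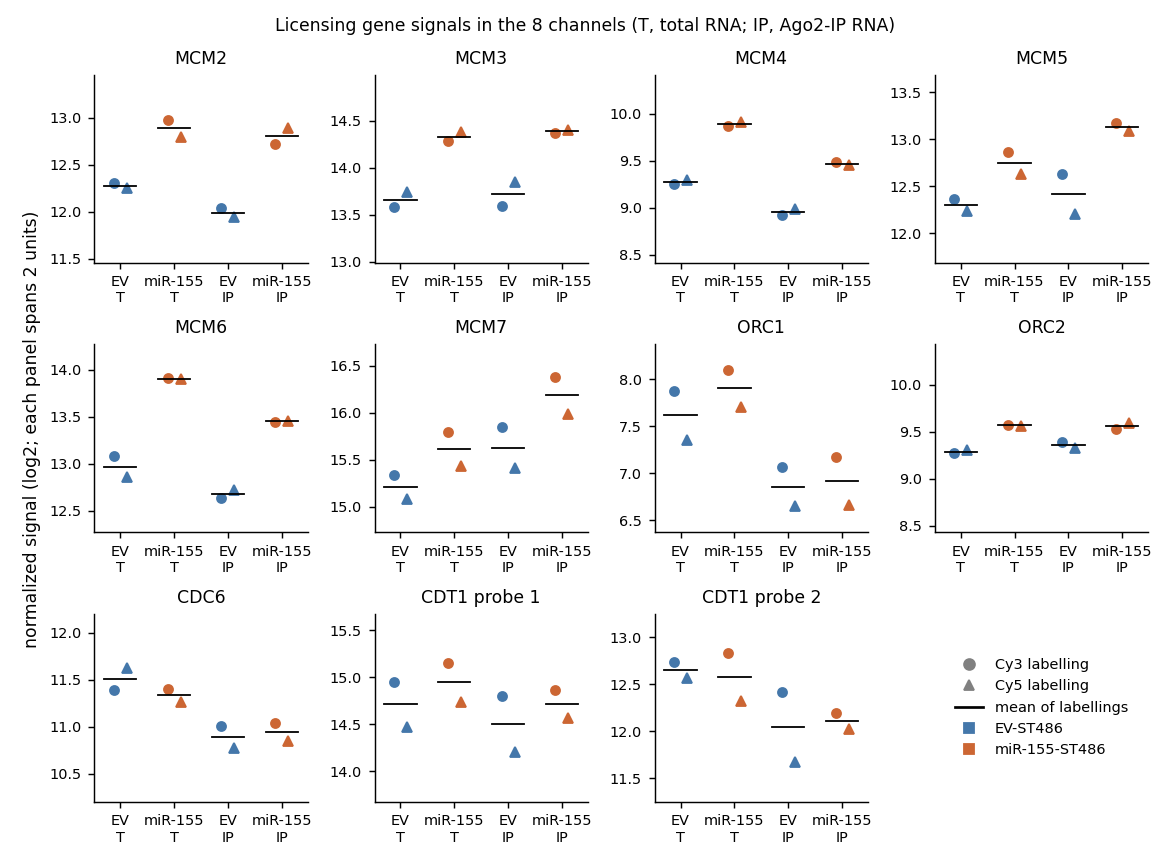
Quantile-normalized signal on the log2 scale (y axis, each panel spans 2 units) of the 11 member probes in the 4 RNA samples (x axis), with Cy3 labellings as circles, Cy5 labellings as triangles and their mean as a line. For the 6 MCM probes and ORC2 both labellings of miR-155-ST486 cells lie above both of EV-ST486 cells in each fraction.

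MCM6 had the highest difference in total RNA among the members. Its total signal was 8646 (Cy3) and 7432 (Cy5) in EV-ST486 cells against 15436 and 15320 in miR-155-ST486 cells, and its IP signal was 6375 and 6736 in EV-ST486 cells against 11198 and 11307 in miR-155-ST486 cells. The cells with miR-155 were thus 1.92-fold higher in total RNA (1.79-fold in Cy3 and 2.06-fold in Cy5) and 1.72-fold higher in IP RNA. All 4 values of miR-155-ST486 cells lay above all 4 of EV-ST486 cells, and in each vector the IP signals lay below the total signals.

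MCM2 had total signals of 5062 and 4860 in EV-ST486 cells against 8071 and 7141 in miR-155-ST486 cells, in Cy3 and Cy5. Its IP signals were 4209 and 3936 in EV-ST486 cells against 6727 and 7583 in miR-155-ST486 cells. The difference was 1.53-fold in total RNA and 1.75-fold in IP RNA, and the values of the vectors did not overlap in either fraction. With miR-155 the IP and total values of MCM2 overlapped over the arrays, although within each array the IP value was the lower.

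MCM3 was measured at 12262 (Cy3) and 13704 (Cy5) in total RNA of EV-ST486 cells against 19949 and 21278 in total RNA of miR-155-ST486 cells. In the IP fraction it was at 12316 and 14809 in EV-ST486 cells against 21116 and 21643 in miR-155-ST486 cells. The vectors did not overlap, with differences of 1.59-fold in total RNA and 1.58-fold in IP RNA, whereas within a vector the total and IP values of MCM3 overlapped.

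MCM4 gave 608 and 624 in total RNA of EV-ST486 cells against 935 and 960 in total RNA of miR-155-ST486 cells. Its IP signals were 484 and 504 in EV-ST486 cells against 713 and 699 in miR-155-ST486 cells. The labellings of each of the 4 samples of MCM4 were close to each other, and the order of the samples, from EV IP over EV total and miR-155 IP to miR-155 total, was the same in both dyes. The differences between the vectors were 1.54-fold in total RNA and 1.43-fold in IP RNA.

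MCM5 gave total signals of 5293 (Cy3) and 4851 (Cy5) in EV-ST486 cells against 7470 and 6353 in miR-155-ST486 cells. Its IP signals were 6331 and 4728 in EV-ST486 cells against 9195 and 8746 in miR-155-ST486 cells. The IP difference, 1.64-fold (1.45-fold in Cy3 and 1.85-fold in Cy5), was the wider of the fractions against 1.36-fold in total RNA, although the EV IP labellings of MCM5 were themselves 1.34-fold apart.

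MCM7 had total signals of 41586 and 34594 in EV-ST486 cells against 57082 and 43996 in miR-155-ST486 cells. In IP RNA it had 59010 and 43602 in EV-ST486 cells against 85564 and 65191 in miR-155-ST486 cells. Cy3 values of MCM7 were above Cy5 values in each sample, yet within either dye the vectors kept the same order, with 1.32-fold in total RNA and 1.47-fold in IP RNA.

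Of the loader genes, ORC2 gave total signals of 618 and 631 in EV-ST486 cells against 760 and 753 in miR-155-ST486 cells, 1.21-fold higher, and IP signals of 670 and 638 against 739 and 771, 1.15-fold higher. The values of ORC2 did not overlap between the vectors. ORC1, detected in 5 of 8 channels, had total signals of 236 and 165 in EV-ST486 cells against 274 and 209 in miR-155-ST486 cells and IP signals of 135 and 100 against 144 and 101. The total values of ORC1 overlapped between the vectors, since the labellings of a sample were farther apart than the 1.22-fold between the vectors.

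CDC6 was the member with the lowest miR-155-ST486 over EV-ST486 value in total RNA. Its total signals were 2690 and 3178 in EV-ST486 cells against 2699 and 2475 in miR-155-ST486 cells, 1.00-fold in Cy3 and 0.779-fold in Cy5. In IP RNA it had 2063 and 1759 against 2108 and 1844, 1.03-fold, and the vectors overlapped in both fractions.

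CDT1 was measured by 2 probes. Probe 1 (A_23_P37704) had total signals of 31601 and 22675 in EV-ST486 cells against 36331 and 27372 in miR-155-ST486 cells, and probe 2 (A_24_P176374) had 6851 and 6083 against 7258 and 5129. IP signals of probe 1 were 28600 and 18814 against 29645 and 24151, and those of probe 2 were 5495 and 3252 against 4680 and 4149. The CDT1 probes overlapped between the vectors in both fractions, with 1.18-fold and 0.945-fold in total RNA, and Cy3 lay above Cy5 in all 8 pairs of labellings.

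**Figure D2:**
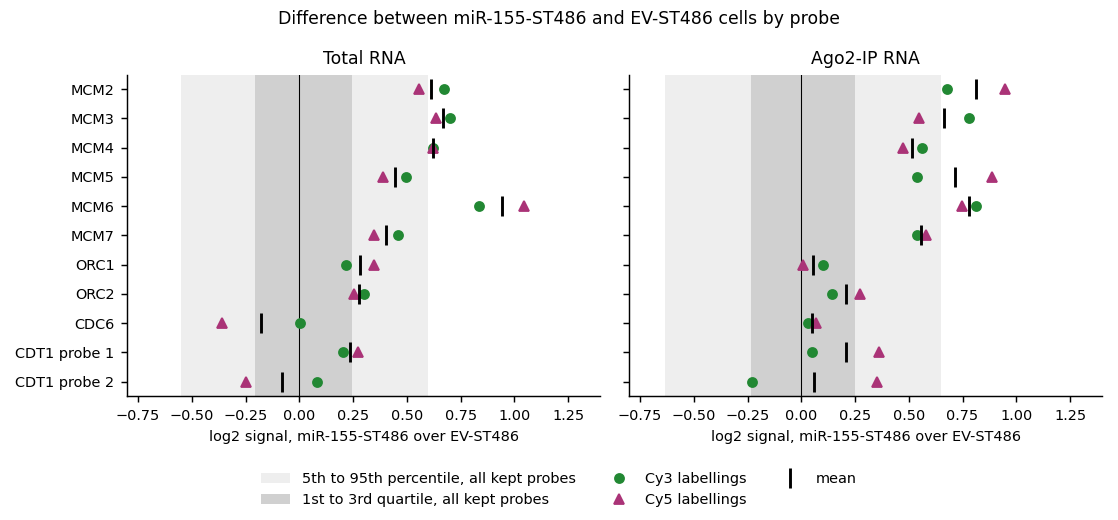
Difference between miR-155-ST486 and EV-ST486 cells on the log2 scale (x axis) for each member probe (y axis) in total RNA (left) and Ago2-IP RNA (right), by dye and as the mean, over the range of all 15529 kept probes (shaded). The 6 MCM probes lie to the right of the quartile range of all probes in both dyes, and the means of the loader probes lie between -0.18 and 0.28 in total RNA.

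Total signals were higher in miR-155-ST486 cells in both dyes for 9 of the 11 member probes and for 6 of the 6 MCM probes, against 37.3% of all kept probes, and lower in both dyes for 0 of 11 against 34.5%. For 7 members, the MCM probes and ORC2, both labellings of miR-155-ST486 cells exceeded both of EV-ST486 cells, which held for 25.8% of all kept probes. At least 1.5-fold higher, a threshold chosen after the values were seen, were 4 members (MCM2, MCM3, MCM4 and MCM6) against 5.37%. In IP RNA 10 of the 11 member probes were higher in both dyes against 34.4%, the exception being CDT1 probe 2. The labellings did not overlap for the same 7 members as in total RNA against 26.9%, and 4 members (MCM2, MCM3, MCM5 and MCM6) were at least 1.5-fold higher against 6.42%. The size of these differences depends on the background correction: with normexp correction the median of the MCM probes in total RNA lay between 0.26 and 0.36 on the log2 scale in place of 0.62, and MCM7 was then lower in miR-155-ST486 cells in Cy5, between -0.10 and -0.08, so that 5 of the 6 MCM probes were higher in both dyes. MCM3 was then between 1.24-fold and 1.32-fold higher and MCM4 between 1.05-fold and 1.20-fold, so that neither reached 1.5-fold under the 3 normexp settings, whereas MCM6 did under all 3 and MCM2 under 2. In IP RNA the median of the MCM probes lay between 0.47 and 0.61 with normexp correction in place of 0.69. The lowest MCM probe in IP RNA was then at 0.03, 0.09 or 0.16 on the log2 scale in place of 0.52. With normexp and quantile normalization this was MCM4 at 0.03, close to no difference.

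IP/T ratios asked whether the licensing transcripts were recovered with Ago2. None of the 11 probes reached the 2-fold enrichment that the study used for the miRNA targetome, in either vector, against 12.1% of all kept probes in EV-ST486 cells and against 12.2% in miR-155-ST486 cells. None was depleted to 0.5 or less either, so that 0 of 11 lay 2-fold or more from 1 in either direction, against 22.1% in EV-ST486 cells and against 22.0% in miR-155-ST486 cells, although ORC1 in the latter was at the edge with 0.504. The median IP/T ratio of the member probes was 0.820 in EV-ST486 cells, against 0.900 over all kept probes, and 0.849 in miR-155-ST486 cells, against 0.882.

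**Figure D3:**
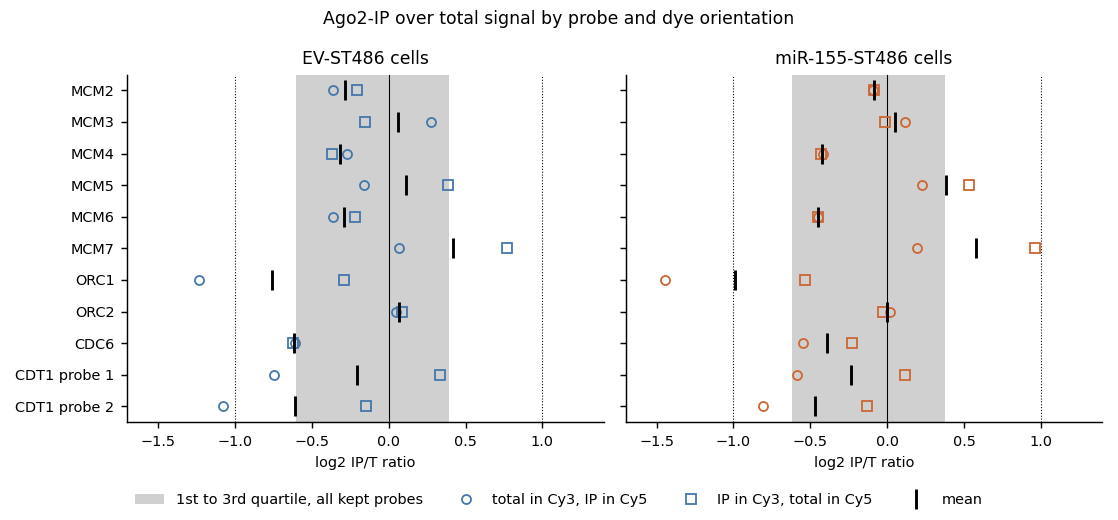
IP/T ratio on the log2 scale (x axis) of each member probe (y axis) in EV-ST486 (left) and miR-155-ST486 cells (right), with circles for arrays with total RNA in Cy3, squares for arrays with IP RNA in Cy3 and bars for their mean, over the quartile range of all kept probes (shaded) and with dotted lines at ratios of 0.5 and 2. No mean lies beyond the dotted lines, and the orientations of ORC1, MCM7 and CDT1 lie far apart.

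The ring subunits fell on both sides of 1. In EV-ST486 cells the IP/T ratio was 0.820 for MCM2, 0.802 for MCM4 and 0.817 for MCM6, below 1 in both dye orientations. It was 1.34 for MCM7, above 1 in both orientations but with 1.05 and 1.71 in the orientations, and the values of MCM3 and MCM5, 1.04 and 1.08, were spread across 1. In miR-155-ST486 cells MCM4 and MCM6 had lower ratios, 0.745 and 0.732, MCM2 was at 0.941, MCM3 at 1.04, MCM5 at 1.30 and MCM7 at 1.49.

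Of the 5 probes of the loader genes 3 were below 1 in both orientations in each vector, against 44.7% (EV) and 50.6% (miR-155) of all kept probes, those of ORC1 and CDC6 and CDT1 probe 2. For ORC1 the IP/T ratio was 0.590 in EV-ST486 cells (0.425 with total RNA in Cy3 and 0.818 with IP RNA in Cy3) and 0.504 in miR-155-ST486 cells (0.368 and 0.690). Its probe was not well above background in Cy5 in EV total, EV IP and miR-155 IP RNA, so that of these orientation values only the 0.690 rests on channels that both detected it. Over the alternatives the log2 IP/T ratio of ORC1 ranged from -1.24 to -0.046 in EV-ST486 and from -1.44 to -0.12 in miR-155-ST486 cells, the upper ends being close to a ratio of 1. CDC6 was at 0.652 in EV-ST486 cells, with 0.654 and 0.649 in the orientations, and at 0.763 in miR-155-ST486 cells. The CDT1 probes were at 0.867 and 0.655 in EV-ST486 cells, but probe 1 was below 1 in one orientation (0.595) and above 1 in the other (1.26), and ORC2 was at 1.05 in EV-ST486 against 0.998 in miR-155-ST486 cells. In miR-155-ST486 cells the CDT1 probes were at 0.849 and 0.722.

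In EV-ST486 cells 6 of the 11 probes were below 1 in both orientations, against 44.7% of all kept probes, and in miR-155-ST486 cells 6 of 11 against 50.6%. Both shares are near those of all probes. They were the same probes in both vectors, those of MCM2, MCM4, MCM6, ORC1 and CDC6 and CDT1 probe 2. With normexp correction the count in EV-ST486 cells was 3, with 9 or 11 member probes measured.

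The miR-155/EV ratio of the IP/T ratios, which the study used to find targets of the ectopic miRNA, was 2 or more for 0 of the 11 probes, against 1.15% of all kept probes, and 0.5 or less for 0 of 11 against 0.477%. Its range over the members was 0.854 for ORC1 to 1.21 for MCM5, and its median 0.996 against 0.983 over all kept probes. MCM5 (1.31 and 1.11 in the orientations), MCM2 (1.21 and 1.09), MCM7 (1.09 and 1.14), CDC6 (1.04 and 1.31) and CDT1 probe 2 (1.20 and 1.01) were above 1 in both orientations. MCM4 (0.902 and 0.958), MCM6 (0.940 and 0.852), ORC1 (0.866 and 0.843) and ORC2 (0.981 and 0.927) were below 1 in both, and MCM3 and CDT1 probe 1 were spread across 1. The higher MCM signals were thus found in both fractions in similar measure, which left the ratio of the ratios close to 1.

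Other genes of replication origins and forks were read alongside, 42 genes with 59 probes, of which 52 probes of 41 genes were kept. The list called licensing here (11 kept probes) holds, among others, the other ORC subunits and GMNN, which inhibits CDT1. It also holds MCM8 to MCM10, which carry the MCM name but are not ring subunits, and the MCM9 probe was detected in 4 of 8 channels. The firing list (11) includes the GINS subunits, CDC45, and CDC7 and DBF4, which together are the kinase that acts on the MCM ring. The fork list (30) includes the DNA polymerases, primase, the clamp PCNA and its loader RFC. In total RNA 31 of the 52 probes were higher in miR-155-ST486 cells in both dyes, against 37.3% of all kept probes, and 6 were lower in both, against 34.5%, those of POLD2, POLD4, POLE3, POLE4 and MCM8. The median difference was 1.1-fold in the licensing list, 1.18-fold in the firing list and 1.25-fold in the fork list, against 1.53-fold for the MCM probes. In IP RNA it was 1.43-fold in the licensing list, 1.15-fold in the firing list and 1.17-fold in the fork list, against 1.61-fold for the MCM probes. Of the 52 probes 34 were higher in IP RNA in both dyes, against 34.4% of all kept probes, and 6 lower in both, against 34.2%. At least 1.5-fold higher in IP RNA were 10 of 52, against 6.42%. They were probes of FEN1, GMNN, LIG1, MCM10, MCM8, PCNA, POLD1, POLE2 and PRIM2, named after their values were seen, with LIG1 at 1.85-fold and an MCM8 probe at 2.05-fold. The PRIM2 probe among them, at 1.82-fold, was detected in 4 of 8 channels and in neither labelling of EV IP RNA, so its value has no detected EV signal to rest on. The other kept probes of PRIM2, FEN1 and MCM8 were at 1.20-fold, 1.47-fold and 1.45-fold in IP RNA. Both labellings of miR-155-ST486 cells exceeded both of EV-ST486 cells for 27 of the 52 probes in total RNA and for 31 in IP RNA, against 25.8% and 26.9% of all kept probes. In total RNA these were 7 of 11 in the licensing list, 6 of 11 in the firing list and 14 of 30 in the fork list. In IP RNA they were 8 of 11, 6 of 11 and 17 of 30. Those of the licensing list include MCM9 and MCM10 in both fractions and MCM8 in IP RNA. The IP counts include the MCM9 probe and a probe each of GINS4 and PRIM2, each detected in 4 of 8 channels. Of the EV-ST486 channels only Cy3 of total RNA detected them, so they passed the filter through the miR-155-ST486 channels. Their EV IP signals were not detected, and their calls in IP RNA therefore do not show a difference between the vectors. At least 1.5-fold higher in total RNA were 6 of the 52 probes, against 5.37%, those of MCMBP, which binds the MCM ring, GINS3, POLA1, POLD1, POLE2 and PRIM2, and these were named after their values were seen. The other kept probes of POLD1 and PRIM2 were at 1.34-fold and 1.26-fold. MCMBP gave 1647 and 1967 in EV-ST486 against 2424 and 3122 in miR-155-ST486 cells, a difference of 1.53-fold.

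**Figure D4:**
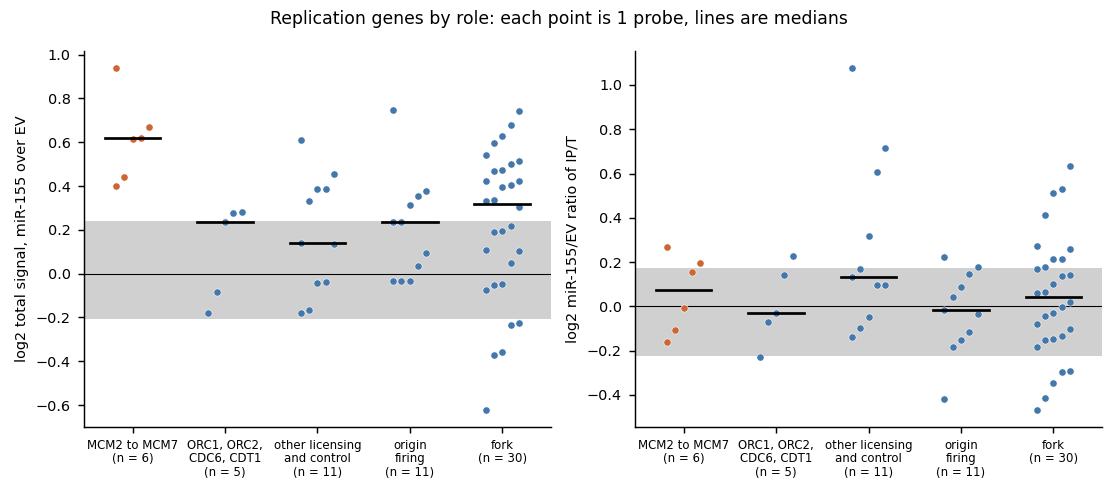
Differences of the mean values of each kept probe (points) and list medians (lines) by role, as log2 total signal of miR-155-ST486 over EV-ST486 cells (left) and as log2 miR-155/EV ratio of the IP/T ratios (right), with the quartile range of all kept probes shaded. The MCM probes lie highest as a list on the left, and on the right the 2 highest points are the MCM8 probes, in the list of other licensing and control genes.

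An IP/T ratio of at least 2 or at most 0.5 was found for 7 of the 52 other replication probes in EV-ST486 cells, against 22.1% of all kept probes, and for 8 of 52 in miR-155-ST486 cells, against 22.0%. GINS1, a GINS subunit, was enriched in the IP fraction with IP/T at 2.47 in EV-ST486 against 2.88 in miR-155-ST486 cells, and a probe of TICRR, which acts with TOPBP1 in origin firing, 2.70 and 2.43, each at least 2 in both orientations. The GINS1 probe was detected in 7 of 8 channels and not in Cy5 of EV total RNA, on which its lower EV value, 2.10, rests. The other TICRR probe was at 1.54 and 1.59. At the low end, FEN1, the flap nuclease of Okazaki fragments, was at 0.250 in EV-ST486 against 0.387 in miR-155-ST486 cells on one probe and at 0.437 and 0.456 on the other. POLD2, a subunit of DNA polymerase delta, was at 0.267 and 0.380, RFC2 of the clamp loader at 0.392 and 0.421 and POLA2 of the polymerase alpha complex at 0.395 and 0.443. In the orientation with IP RNA in Cy3 the EV value of POLA2 was 0.617. The further probe counted in miR-155-ST486 cells was of RFC3, named after its values were seen. It was at 0.619 in EV-ST486 against 0.448 in miR-155-ST486 cells, the latter with 0.518 and 0.387 in the orientations. This probe was not detected in Cy5 of the IP RNA of either vector, and the other RFC3 probe was at 1.06 and 0.935.

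MCM8, a relative of the ring subunits that acts in homologous recombination, had a miR-155/EV ratio of 2.11 on one probe and 1.64 on the other. The former was the only probe to reach 2 here, 1 of 52, and 1.15% of all kept probes reached it. A single such probe is thus near the share of the array. On the former the total signals were 531 and 601 in EV-ST486 against 571 and 527 in miR-155-ST486 cells, whereas the IP signals were 355 and 313 in EV-ST486 against 654 and 714 in miR-155-ST486 cells. Its IP/T ratio was below 1 in EV-ST486 (0.591) and above 1 in miR-155-ST486 cells (1.25) in both orientations. As the latter is under 2, this probe did not meet the study's rule for a target. On this probe the vectors overlapped in the total fraction and not in the IP fraction. On the other MCM8 probe the total signals were 1534 and 1763 in EV-ST486 against 1489 and 1412 in miR-155-ST486 cells and the IP signals 1194 and 1389 against 1760 and 1971, so that the vectors overlapped in neither fraction, with lower total and higher IP signals in miR-155-ST486 cells. With normexp correction the log2 miR-155/EV ratio of the former probe was 0.23, 0.66 or 0.58 in place of 1.08, so that no probe of MCM8 reached 2 there. GMNN, named after its values were seen, had IP/T ratios of 0.946 and 1.44 and a miR-155/EV ratio of 1.52.

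The probes that the filters removed were 7. The POLE probe, and a probe each of ORC4 and GINS4, were detected in 2 of 8 channels. Further probes of MCM10, DBF4, GINS3 and ORC5 were more than 2-fold apart between the labellings of a sample, with 2.24-fold for MCM10, 2.20-fold for DBF4 and 6.42-fold for GINS3 in EV total RNA and 2.30-fold for ORC5 in EV IP RNA.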

How the data were processed

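Total and Ago2-IP RNA of the EV-ST486 and the miR-155-ST486 cells were measured in 4 RNA samples, each in Cy3 and Cy5, on 4 arrays with 45015 spots. The deposited files hold spot intensity as Feature Extraction 10.5.1.1 gave it to the authors, background-subtracted and dye-normalized within the array per the file headers. The authors also deposited log2 values of 14453 probes, quantile-normalized and filtered in GeneSpring, of which 99.9% lay within 0.05 of the values made here. The file of an array appears once for each channel, and the identical copies were counted as 1 array.

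From the intensities on, the steps named in the study's methods were taken, but the detection filter as applied here keeps 15529 probes, more than the deposited table holds, among them the ORC1 probe and a PRIM2 probe that the deposited table lacks. Control spots were left out, spots of a probe averaged, signals under 1 set to 1, and log2 values quantile-normalized over the 8 channels. A probe was kept if 4 or more channels detected it and no sample had labellings more than 2-fold apart. Signals in the text are these values on the linear scale, ratios are means over the labellings on the log2 scale, and signals of different probes are not comparable with each other. Symbols came from the RefSeq identifier on the array, with a match for 23958 of the 41000 probes, 11044 of them among the 15529 kept. The number of arrays limits the precision.

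The members, lists and rules were chosen with earlier results of these data known. All member probes were named, and of the other replication genes those with an IP/T ratio of at least 2 or at most 0.5 in both orientations of a vector, or with that threshold passed by the miR-155/EV ratio. Each condition had n = 1, so no test was made. The calculation was tested on simulated data. Alternatives were normexp correction (offset 50, in limma 3.58.1 under R 4.3.3) on median signals, also with local backgrounds over 500 replaced and with loess and Aquantile, no quantile normalization, the deposited log2 values, other filters, either orientation alone and 1 value per gene. Python 3.11.15, numpy 2.4.6, pandas 2.3.3 and matplotlib 3.10.9 were used.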

Additional observations from a re-analysis of the deposited data

Results flagged for a closer look

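Both MCM8 probes had IP/T ratios below 1 in both orientations in EV-ST486 cells and above 1 in both in miR-155-ST486 cells. In the latter cells they were at 1.25 and 1.28, under the 2 that the study required of a target. The log2 miR-155/EV ratios of these probes were 1.08 and 0.71. Only the former reached 2-fold among the 52 other replication probes, near the 1.15% of all kept probes that did so. The difference between the vectors was not tested. Over the alternatives these ratios ranged from 0.23 to 1.09 and from 0.31 to 0.88, with the lowest values under normexp correction with quantile normalization. A PRIM2 probe, for a primase subunit, went the opposite way, above 1 in EV-ST486 and below 1 in miR-155-ST486 cells, with a log2 miR-155/EV ratio of -0.41, between -0.71 and -0.01 over the alternatives, also not tested. The other PRIM2 probe, detected in 4 channels and in neither labelling of EV IP RNA, had 0.53.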

How the results depend on the processing

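The log2 median of IP/T of the members in miR-155-ST486 cells, -0.237 as reported, lay between -0.419 and -0.054 under the 12 alternatives, and the count of members below 1 there, 6 as reported, between 4 and 8. The MCM probes higher in both dyes in total RNA were 5 of 6 under the normexp settings and 6 of 6 under the others. In the order normexp with quantile normalization, normexp with high local backgrounds replaced, and the latter with loess and Aquantile, the log2 median of IP/T in EV-ST486 cells was -0.046, -0.104 and -0.024 in place of -0.285, the count of members below 1 in EV-ST486 cells was 3 in each, the median difference between vectors was 0.214, 0.22 and 0.264 in total RNA in place of 0.402 and 0.194, 0.302 and 0.295 in IP RNA in place of 0.515, and that of the MCM probes in total RNA was 0.263, 0.328 and 0.358. The MCM probes in IP RNA were higher in both dyes in 5, 5 and 6 of 6. Both CDT1 probes were left out where local backgrounds were replaced. Without quantile normalization these medians were 0.834 in total RNA, 0.924 in IP RNA and 1.074 for the MCM probes in total RNA, but the median of all probes in total RNA was then 0.44, and the MCM probes lay 0.63 above it, against 0.60 in the values reported. The median log2 miR-155/EV ratio, -0.006 as reported, was -0.045 with normexp and quantile normalization, 0.035 with loess and Aquantile, 0.048 without quantile normalization, 0.07 in the deposited values, 0.068 with detection in all 8 channels and 0.063 when only arrays with Cy3-labelled total RNA were used, and the cause was not tested. The count of other replication probes with an IP/T ratio below 1 in miR-155-ST486 cells was 15 of 45 with loess and Aquantile in place of 25 of 52. The other replication probes with higher total signals in both dyes numbered 47 of 53 without quantile normalization in place of 31 of 52.

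Of the 114 values of single member probes under alternatives, 109 kept their sign for the total difference and 104 for the miR-155/EV ratio. Alternatives that changed only a filter left the value of a kept probe as it was, so these values could not change sign. The deposited values and those without flagged spots were nearly the same as the reported ones. These counts therefore say little of how stable the signs are. ORC1, detected in 5 channels, was left out without quantile normalization, in the deposited values and with detection in all 8 channels. No paired analysis was possible because each condition has 1 RNA sample and the labellings are technical repeats.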
